A study of Mus musculus with 6 samples.

Results

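The lysosomal genes described here are 40 genes chosen by symbol, which encode soluble hydrolases of the lysosome, their cofactors, proteins of the lysosomal membrane, a sorting receptor and a transcription factor of lysosomal genes. All 40 were found among the 23282 rows of the deposited files, each on a single row, and all 40 passed the filter on low values that left 13317 genes for testing. RNA was measured in whole kidney of 2 inbred mouse strains, C57BL/6 (B6) and BALB/c, with 3 libraries of each. The series as a whole concerns strain differences of innate lymphoid cells in the kidney, and the labels of these libraries give tissue, strain and replicate. The sources used here do not give sex, age or any treatment. Values are in CPM, reads scaled per library and not to transcript length. They do not share a common total, with sums between 980188 and 1043599 per library. A positive log2 fold means a higher level in BALB/c, and folds, on the log2(CPM + 1) scale, are given with the standard error (SE) of limma, a linear model whose variances are moderated across genes.

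Lysosomes are acidic compartments in which proteins, glycans and lipids taken up by endocytosis or delivered by autophagy are broken down. Proximal tubule cells of the kidney reabsorb filtered protein through the receptors megalin and cubilin and degrade it in lysosomes, and macrophages of the organ are also rich in them. Most soluble hydrolases reach the lysosome through mannose 6-phosphate receptors, the vacuolar proton pump acidifies it, and the transcription factor TFEB binds E-box sequences in many lysosomal promoters. Inherited loss of a single hydrolase or membrane protein commonly leads to a lysosomal storage disease.

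The promoter table matched 34 of the 40 genes, several of them with more than 1 start, and its windows run from 250 bases before to 50 bases after a RefSeq start (GRCm38.p6). The E-box core CACGTG, which reads the same on both strands, was found in 12 of these 34 genes (35.3%), against 11.6% of the 10074 tested genes with a promoter and 8.09% of all genes in the table. The longer TCACGTGA, which contains the core, was found in 4 genes (11.8%), against 2.16% of the tested genes and 1.12% of all. The 4 genes were Ctsa, Ctsd, Mcoln1 and Gla. Shares in the further lysosomal pathway genes described below were similar, with the core in 27.6% and the longer form in 14.5% of 76 genes with a promoter. A GC box, GGGCGG on either strand, was found in 70.6% of the 34 genes and in 67.4% of the tested ones. The 120 bases upstream of the start for 5 of the genes that differed between the strains and for Lamp1, which had 4 copies of the core, the most of the 34, are given to show where these elements lie. Each window ends before the first start that GENCODE M21 annotates there, E-boxes are in capitals (8 letters where the longer form is met), and all are written 5′ to 3′ on the strand of the gene.
Gla, chrX:134601126-134601245, minus strand: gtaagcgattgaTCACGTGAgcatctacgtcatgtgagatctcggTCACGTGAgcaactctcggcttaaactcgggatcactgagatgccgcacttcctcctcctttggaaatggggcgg
Lamp1, chr8:13159041-13159160, plus strand: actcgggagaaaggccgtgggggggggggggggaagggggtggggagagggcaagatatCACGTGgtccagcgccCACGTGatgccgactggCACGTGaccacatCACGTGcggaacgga
Ctsc, chr7:88277965-88278084, plus strand: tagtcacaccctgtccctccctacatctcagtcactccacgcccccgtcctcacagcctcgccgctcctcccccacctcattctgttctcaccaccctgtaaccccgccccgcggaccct
Neu1, chr17:34931133-34931252, plus strand: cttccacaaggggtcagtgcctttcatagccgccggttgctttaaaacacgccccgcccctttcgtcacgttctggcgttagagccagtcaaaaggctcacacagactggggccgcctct
Lipa, chr19:34527475-34527594, minus strand: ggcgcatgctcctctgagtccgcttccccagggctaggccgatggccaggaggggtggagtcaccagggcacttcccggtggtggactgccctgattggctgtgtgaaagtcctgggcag
Ppt1, chr4:122836107-122836226, plus strand: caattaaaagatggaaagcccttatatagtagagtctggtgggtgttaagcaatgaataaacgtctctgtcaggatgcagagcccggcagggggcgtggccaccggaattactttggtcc

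Libraries held between 8310798 and 10416332 reads, and the 45S ribosomal RNA row took between 12.7% and 15.6% of the values. All 11 proximal tubule markers had reads in every library and Myl2 of heart muscle had 0 reads in all 6. The summed level of the proximal tubule markers was 9880 to 10290 CPM in B6 and 8431 to 9767 CPM in BALB/c, without overlap. Slc22a8 was called lower and 10 were not called. An unadjusted limma p under 0.05 was found for 5 of the 11, and 9 folds were negative and 2 positive. The 12 macrophage markers summed to 135.8 to 167.4 CPM in B6 and to 207.9 to 216.8 CPM in BALB/c, with Csf1r (log2 fold 0.90) and Cx3cr1 (0.88) called higher and 10 not called. Of the 12 folds 5 were negative, among them C1qb (-0.60 ± 0.23), C1qc (-0.54 ± 0.27) and Adgre1 (-0.74 ± 0.40), and without Csf1r the sums were 74.74 to 96.2 CPM in B6 and 83.97 to 106.9 CPM in BALB/c and overlapped. All of the 3′ end of Csf1r is shared with Hmgxb3 on the opposite strand. Markers of endothelium and stroma summed to 343.5 to 408.5 and 395.8 to 502.4 CPM in B6, and to 322.3 to 343.1 and 343.1 to 395.3 CPM in BALB/c, with 0 of 8 endothelial markers called by limma (3 at an unadjusted p under 0.05) and 2 of 6 stromal ones called lower. In whole organs a change in the number of cells of a type and a change in RNA per cell cannot be told apart, and the part of these markers in the differences below was not tested. The mm10 assembly used for all libraries derives from B6, and a loss of reads that carry BALB/c variants was not tested. The values of a lysosomal gene rested on 11 to 10997 reads in a library.

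Of the 40 lysosomal genes, 7 differed between the strains, with 3 at a higher and 4 at a lower level in BALB/c. The call was a limma p under 0.05 after Benjamini-Hochberg adjustment over all genes tested. This was 17.5% of the genes, where 9.09% of all tested genes were called, 4.17% higher and 4.93% lower. An unadjusted p under 0.05 was found for 15 of the 40 genes, where 21.3% of all tested genes had one. The higher ones were Neu1, Lipa and Ppt1, and the lower ones Ctsc, Ctsl, Asah1 and Gla. The median log2 fold of the 40 genes was -0.0013, against 0.0023 for all tested genes, and 20 folds were positive and 20 negative. Their median absolute log2 fold was 0.20, against 0.22 over all tested genes. The genes had more reads than most, with a median level of 62.9 CPM against 19.3 CPM, and a median coefficient of variation between libraries of 9.95% in B6 and 10.1% in BALB/c, against 15.7% and 15.2%. Values did not overlap between the strains in 18 of the 40 genes, 9 in each direction, where 25.4% of all tested genes had no overlap, 12.5% higher and 12.9% lower. With a variance prior that does not follow the expression level, Ctsc alone of the 40 was called (493 calls over all genes).

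**Figure D1:**
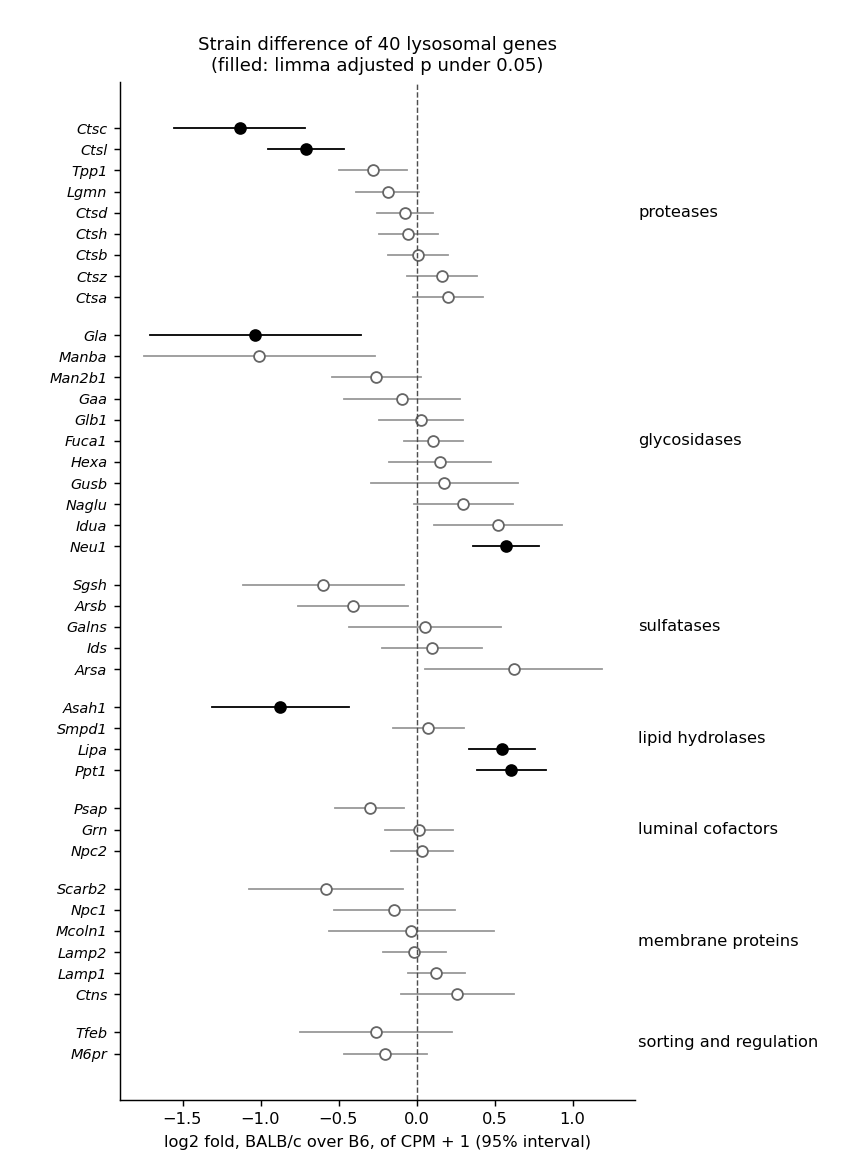
The log2 fold (BALB/c over B6, points) of each of the 40 lysosomal genes with its 95% interval (lines), grouped by role. Filled points mark the 7 called genes, from -1.13 for Ctsc to 0.61 for Ppt1, and open points the 33 not called.

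Summed over the 40 genes, the levels of the strains differed by less than the spread between libraries, at 6130, 5959 and 6112 CPM in B6 and 6136, 5824 and 6328 CPM in BALB/c. The ratio of the means was 1.005. The sums of single roles moved apart. The 9 proteases came to 1984 to 2175 CPM in B6 and 1842 to 1893 CPM in BALB/c, and the strains did not overlap. The 11 glycosidases came to 685.8 to 766.6 CPM in B6 and 829.4 to 934.3 CPM in BALB/c, and the 4 lipid hydrolases to 410.5 to 460.6 and 569.9 to 622.4 CPM, again without overlap. The gap in the glycosidase sum rested on Neu1, without which the sums were 446.4 to 487.3 CPM in B6 and 471.2 to 501.6 CPM in BALB/c and overlapped. The protease and lipid hydrolase sums stayed apart without any 1 of their genes. Without Ctsl the protease gap was narrow, with 1669 to 1718 CPM in B6 and 1581 to 1661 CPM in BALB/c. Sums with a gene left out were not rescaled to equal library totals. Leaving out single genes was chosen after seeing the data. The strains overlapped in the sums of the 5 sulfatases, the 3 luminal cofactors and the 6 membrane proteins, and no library of BALB/c exceeded the lowest B6 value (91.8 CPM) in the sum of M6pr and Tfeb, where the highest BALB/c value was 91.6 CPM.

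**Figure D2:**
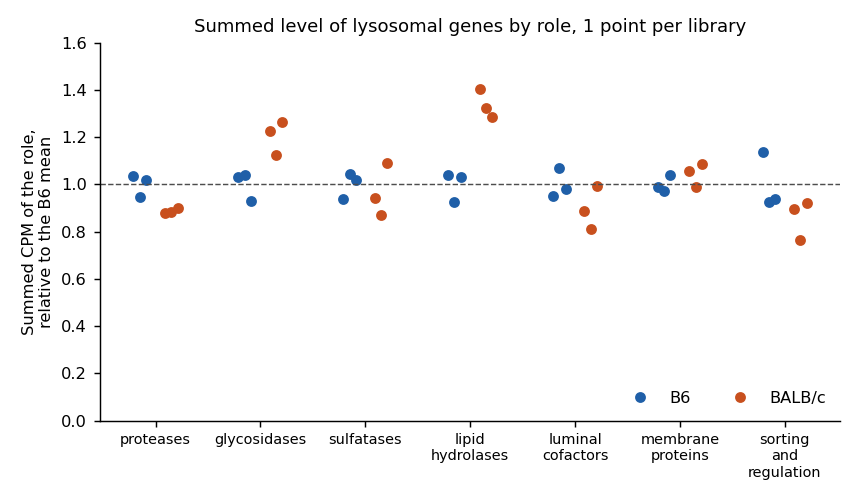
Summed CPM of the genes of each role, 1 point per library, divided by the B6 mean of that role. BALB/c libraries lie below B6 for proteases and above B6 for glycosidases (with Neu1 in the sum) and lipid hydrolases, while sulfatases, luminal cofactors and membrane proteins overlap.

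Among the proteases, Ctsc and Ctsl were lower in BALB/c, and the other 7 were not called. Ctsc (chromosome 7, 88278085 to 88310888, GRCm38) encodes cathepsin C, a dipeptidyl peptidase that activates serine proteases of leukocyte granules. Its level was 27.5, 26.9 and 25.6 CPM in B6 and 9.29, 14.03 and 11.9 CPM in BALB/c. Every BALB/c library was thus well below the lowest B6 library. Its log2 fold was -1.13 ± 0.20 (SE, limma adjusted p = 5.69e-04), a B6 mean 2.27 times that of BALB/c, and it was called under all 17 alternatives tried.

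Ctsl (chromosome 13, 64359337 to 64370890) encodes cathepsin L, a cysteine endopeptidase of general lysosomal protein breakdown. Its level was 456.3, 315.3 and 453.1 CPM in B6 and 235.7, 271.7 and 231.6 CPM in BALB/c. B6 replicate 2 was the lowest B6 library and still above every BALB/c library. The fold, on the log2 scale, was -0.71 ± 0.12 (SE, limma adjusted p = 2.48e-04). It lost its call with the variance prior without a trend (adjusted p = 0.0943). Exons of Ctsl overlap those of Gm47123 on the opposite strand and Gm49230 on the same strand.

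The remaining proteases had log2 folds between -0.28 and 0.20. Tpp1, tripeptidyl peptidase 1, was at 219.9, 180.9 and 208.7 CPM in B6 and at 158.9, 158.0 and 184.7 CPM in BALB/c, where the highest BALB/c library exceeded the lowest B6 library. Its log2 fold was -0.28 ± 0.10 (limma adjusted p = 0.106), and without B6 replicate 2 it was called (adjusted p = 0.0309). Lgmn, which encodes legumain, an asparaginyl endopeptidase that processes other cathepsins, was at 227.3, 194.2 and 211.6 CPM in B6 and at 186.7, 180.8 and 187.8 CPM in BALB/c. The strains did not overlap, and the log2 fold of -0.19 ± 0.10 was not called (limma adjusted p = 0.276). The aspartyl protease gene Ctsd had -0.07 ± 0.09, the aminopeptidase gene Ctsh -0.05 ± 0.09 and the carboxypeptidase gene Ctsz 0.17 ± 0.11. Ctsb, which encodes cathepsin B, had 0.01 ± 0.09, but all of its 3′ end is shared with exons of Fdft1 on the opposite strand.

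**Figure D3:**
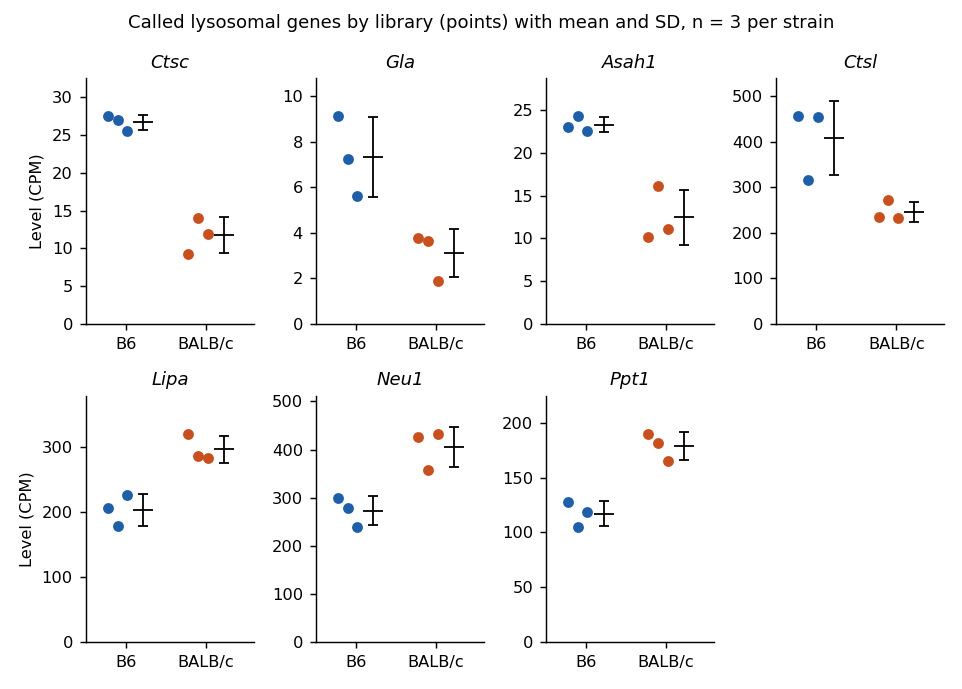
Level in CPM of the 7 called genes in each library (points), with the mean and SD of the 3 libraries of a strain (bars). The 3 BALB/c points lie below all B6 points for Ctsc, Gla, Asah1 and Ctsl and above them for Lipa, Neu1 and Ppt1.

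Of the 11 glycosidases, Neu1 was higher and Gla lower in BALB/c. Neu1 (chromosome 17, 34931253 to 34935953), in the MHC region, encodes the lysosomal sialidase, which removes terminal sialic acids. It was at 298.8, 279.3 and 239.4 CPM in B6 and at 426.6, 358.3 and 432.8 CPM in BALB/c. The lowest BALB/c library was above the highest B6 library. The log2 fold was 0.57 ± 0.10 (SE, limma adjusted p = 5.11e-04), a call that ended with the prior without a trend (adjusted p = 0.0972). The sialidase acts in a complex with the carboxypeptidase encoded by Ctsa and the beta-galactosidase encoded by Glb1. The fold of Ctsa was 0.20 ± 0.11 on that scale (limma adjusted p = 0.302) and that of Glb1 was 0.03 ± 0.13 (adjusted p = 0.935), and whether these folds differ from that of Neu1 was not tested. Exons of Ctsa overlap those of Pltp and Neurl2.

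Gla (chromosome X, 134588149 to 134601125) encodes alpha-galactosidase A, which degrades globotriaosylceramide and is lost in Fabry disease. It was low, at 9.13, 7.26 and 5.61 CPM in B6 and 3.77, 3.66 and 1.90 CPM in BALB/c, with 19 to 83 reads in a library. The strains did not overlap. The log2 fold was -1.03 ± 0.33 (SE, limma adjusted p = 0.0484), and the call ended without any 1 of the 6 libraries (adjusted p between 0.0512 without B6 replicate 3 and 0.209 without B6 replicate 1) and in 14 of 17 alternatives in all.

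Manba, which encodes beta-mannosidase, had a similar fold to Gla at a similar depth. It was at 6.38, 7.26 and 5.94 CPM in B6 and at 4.07, 3.89 and 1.10 CPM in BALB/c, with no overlap and a log2 fold of -1.01 ± 0.36 (limma adjusted p = 0.0836). Man2b1, the gene of lysosomal alpha-mannosidase, had -0.26 ± 0.14 (adjusted p = 0.291). Idua, the iduronidase gene, was at 15.3, 21.4 and 14.5 CPM in B6 and at 24.2, 21.9 and 27.9 CPM in BALB/c. The lowest BALB/c library lay just above B6 replicate 2, and without that library the log2 fold of 0.52 ± 0.20 (limma adjusted p = 0.112) was called (adjusted p = 0.0450). Exons of Idua overlap those of Slc26a1 and Dgkq on the opposite strand. The other 6 glycosidases, Fuca1, Gaa, Glb1, Gusb, Hexa and Naglu, had log2 folds between -0.10 and 0.30.

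The breakdown of heparan sulfate needs Ids, Idua, Sgsh, Naglu and Gusb in turn, and none of these 5 was called. Sgsh, the sulfamidase gene, was at 14.1, 12 and 15.1 CPM in B6 and at 6.78, 11.3 and 8.52 CPM in BALB/c, without overlap (log2 fold -0.60 ± 0.25, limma adjusted p = 0.153). Naglu, which acts on the same chain, was at 29.7, 32.5 and 26.8 CPM in B6 and at 36.7, 38.3 and 34.9 CPM in BALB/c, also without overlap (0.30 ± 0.15, limma adjusted p = 0.270). The iduronate sulfatase gene Ids had 0.10 ± 0.15 and the glucuronidase gene Gusb 0.18 ± 0.23. Exons of Sgsh overlap those of Card14 on the opposite strand.

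Of the 5 sulfatases 0 were called by limma, and 3 had an unadjusted p under 0.05, Sgsh, Arsb and Arsa. Arsa, arylsulfatase A, which acts on sulfatide, was at 5.06, 7.36 and 9.08 CPM in B6 and at 9.97, 10.1 and 14.2 CPM in BALB/c (log2 fold 0.62 ± 0.27, limma adjusted p = 0.182). Arsb, arylsulfatase B, which acts on dermatan and chondroitin sulfate, was at 28.6, 27.2 and 31.4 CPM in B6 and at 21.4, 20.3 and 23.5 CPM in BALB/c (-0.41 ± 0.17, limma adjusted p = 0.157). Neither overlapped between the strains, and they lay in opposite directions. Of the 3′ end of Arsb, 98.0% is shared with Gm26527, annotated on the opposite strand. Galns, the galactosamine-6-sulfatase gene, ranged from 13.5 to 24.3 CPM in B6 and from 14.9 to 25.3 CPM in BALB/c.

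Of the 4 lipid hydrolases 3 were called, Lipa and Ppt1 higher and Asah1 lower. Lipa (chromosome 19, 34492318 to 34527474) encodes lysosomal acid lipase, which hydrolyses cholesteryl esters and triglycerides. It was at 205.8, 178.3 and 226.9 CPM in B6 and at 321.0, 286.4 and 284.0 CPM in BALB/c, and every BALB/c library was above every B6 library. Its log2 fold was 0.55 ± 0.10 (SE, limma adjusted p = 7.85e-04). Ppt1 (chromosome 4, 122836242 to 122859175) encodes palmitoyl-protein thioesterase 1, which removes fatty acids from cysteines of proteins and is lost in an infantile form of neuronal ceroid lipofuscinosis. It was at 128.2, 104.9 and 118.8 CPM in B6 and at 190.2, 181.7 and 164.9 CPM in BALB/c, a log2 fold of 0.61 ± 0.11 (limma adjusted p = 4.39e-04) without overlap. With the prior without a trend, the adjusted p was 0.0983 for Lipa and 0.0661 for Ppt1. Exons of Ppt1 overlap those of Cap1 over 129 bases on the opposite strand.

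Asah1 (chromosome 8, 41340197 to 41374773) encodes acid ceramidase, which splits ceramide into sphingosine and a fatty acid. It was at 23.0, 24.3 and 22.5 CPM in B6 and at 10.2, 16.2 and 11.1 CPM in BALB/c. The B6 libraries lay close together, and the highest BALB/c library was below all of them. The log2 fold was -0.87 ± 0.21 (SE, limma adjusted p = 0.00885), and the call ended without BALB/c replicate 1 (adjusted p = 0.0524) and with the prior without a trend (0.0549). Smpd1, which encodes acid sphingomyelinase, the enzyme that makes ceramide from sphingomyelin in the lysosome, was not called, at 0.08 ± 0.11 on the log2 scale (limma adjusted p = 0.760).

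**Figure D4:**
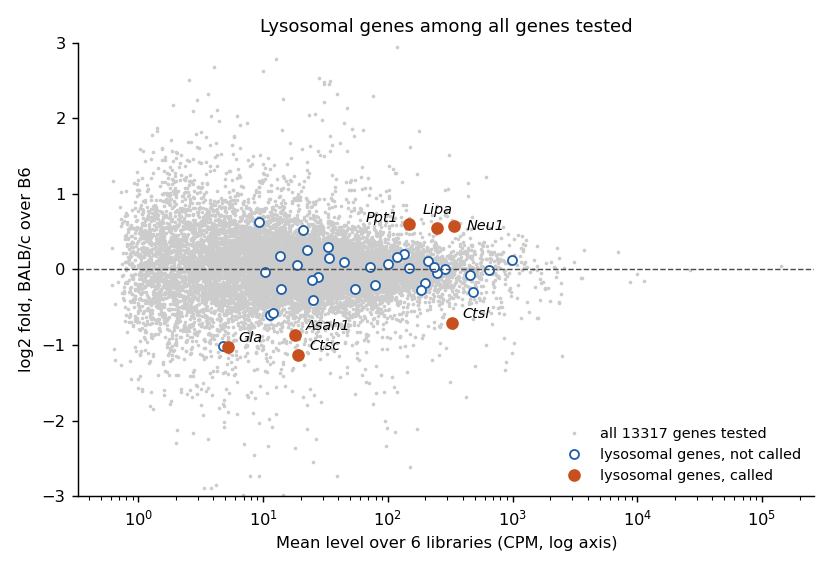
The log2 fold (BALB/c over B6) against the mean level over the 6 libraries in CPM on a log axis, with all 13317 tested genes in grey and the 40 lysosomal genes as circles. The called genes (filled) comprise Gla, Ctsc and Asah1 at low levels and Ctsl, Neu1, Lipa and Ppt1 at higher levels, and 23 genes with folds beyond 3 on the log2 scale lie outside the plot.

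The luminal cofactors and membrane proteins held no called gene by limma, and 2 of these 9 genes, Psap and Scarb2, had an unadjusted p under 0.05. Psap, the precursor of the saposins that present lipids to hydrolases, was at 513.8, 610.8 and 485.1 CPM in B6 and at 428.9, 378.5 and 503.3 CPM in BALB/c. BALB/c replicate 3 lay within the B6 range. The log2 fold of -0.30 ± 0.11 was not called (limma adjusted p = 0.0867) but was called without B6 replicate 3 (0.0484) or without BALB/c replicate 3 (0.0226). Npc2, which binds cholesterol in the lumen and hands it to the membrane protein of Npc1, had 0.04 ± 0.10, and Grn, the progranulin gene, had 0.01 ± 0.11.

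Scarb2 encodes LIMP-2, a membrane protein that carries beta-glucocerebrosidase to the lysosome. It was at 17.4, 11.6 and 15.02 CPM in B6 and at 8.32, 10.03 and 9.82 CPM in BALB/c, without overlap, and its log2 fold of -0.58 ± 0.24 was not called (limma adjusted p = 0.148). Lamp1 and Lamp2 encode the most abundant glycoproteins of the lysosomal membrane. Lamp1 was at 913.0 to 977.9 CPM in B6 and 947.2 to 1102 CPM in BALB/c, a log2 fold of 0.13 with a 95% interval from -0.06 to 0.31. Lamp2 was at 564.7 to 738.3 CPM in B6 and 621.5 to 666.7 CPM in BALB/c, a log2 fold of -0.01 with an interval from -0.21 to 0.19. Of the 3′ end of Lamp1, 51.0% is shared with Grtp1 on the opposite strand. Ctns, the cystine exporter gene that is mutated in cystinosis, was at 19.3 to 21.1 CPM in B6 and 24.1 to 25.1 CPM in BALB/c, and did not overlap, but was not called (0.26 ± 0.18, limma adjusted p = 0.428). The cholesterol exporter gene Npc1 had -0.14 ± 0.19, with 56.9% of its 3′ end shared with Rmc1, and the calcium channel gene Mcoln1 had -0.03 ± 0.25.

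Tfeb was at 13.1, 16.8 and 15.4 CPM in B6 and at 11.1, 10.03 and 16.8 CPM in BALB/c, with BALB/c replicate 3 level with the highest B6 library. Its log2 fold was -0.26 ± 0.24 (limma adjusted p = 0.587), with a 95% interval from -0.75 to 0.23. M6pr, the cation-dependent mannose 6-phosphate receptor gene, had -0.20 ± 0.13 (adjusted p = 0.398). Of the genes with a promoter in the table, the core CACGTG was found in 2 of the 3 called lower, Gla and Ctsl, in 0 of the 3 called higher, and in 10 of the 28 not called. The 2 copies in Gla are both the longer form, shown in its window above. Ctsa, Ctsd and Mcoln1, the other genes with that form, were not called. The copy in Ctsl lies 236 bases before its RefSeq start. GENCODE annotates a Ctsl transcript that starts further upstream, so this copy lies within the annotated span of the gene. Copies in some other genes, among them Ctsa and Lgmn, also lie within the annotated span of their gene.

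Of the 33 genes not called, 18 had a 95% interval (unadjusted) that lay between -0.5 and 0.5 on the log2 scale, and 29 had one between -1 and 1. The intervals of the other 4, Manba, Arsa, Sgsh and Scarb2, did not exclude a difference of 2-fold.

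Of 97 further genes of the lysosomal pathway, 95 were tested and 13 were called, 4 higher and 9 lower in BALB/c (13.7%, where 9.09% of all tested genes were called). Their median log2 fold was -0.06. Among 27 other hydrolases and cofactors, 3 were higher and 3 lower. Prcp, the gene of prolylcarboxypeptidase, which trims proline-containing peptides such as angiotensin II, had the lowest fold, at 26.4, 14.5 and 16.2 CPM in B6 and 2.03, 3.18 and 3.51 CPM in BALB/c. The log2 fold was -2.33 ± 0.29 (SE, limma adjusted p = 6.33e-06). The carboxypeptidase gene Scpep1 had -0.70 ± 0.12 (5.27e-04) and Gm2a, which encodes the activator that lets hexosaminidase A reach ganglioside GM2, had -0.39 ± 0.09 (0.00784). Hexa, a subunit gene of that hexosaminidase, had 0.15 ± 0.16 and was not called. Ggh, the gene of the folate-trimming gamma-glutamyl hydrolase, had 0.76 ± 0.18 (limma adjusted p = 0.00738). The ribonuclease genes Rnaset2a (1.15 ± 0.09, 1.95e-09) and Rnaset2b (0.36 ± 0.09, 0.00667) share 80.4% of their 3′ ends with each other, so their reads cannot be assigned with certainty. Rnaset2b lost its call without BALB/c replicate 1 (adjusted p = 0.0623) and Gm2a without BALB/c replicate 2 (0.0637).

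Among 22 tested membrane proteins outside the 40 genes, Tmem106b, a membrane protein gene of late endosomes and lysosomes, was lower, at 283.8, 324.2 and 269.0 CPM in B6 and 188.5, 184.1 and 166.2 CPM in BALB/c (log2 fold -0.70 ± 0.10, limma adjusted p = 3.29e-05). Lmbrd1, needed for the export of cobalamin from lysosomes, was higher, at 86.4, 88.3 and 80.9 CPM in B6 and 138.2, 140.2 and 109.6 CPM in BALB/c (0.59 ± 0.12, limma adjusted p = 0.00144). Neither overlapped between the strains. Of 11 sorting genes 1 was called, Igf2r, the cation-independent mannose 6-phosphate receptor, with -0.57 ± 0.15 (limma adjusted p = 0.0131). The call was lost without B6 replicate 1 and without BALB/c replicate 1 (adjusted p = 0.102 in both), and with no filter on low values (0.0509).

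Of 19 genes of the TFE factors and of the kinase complex mTORC1, which sits on the lysosome and restrains them, 2 were lower. Lamtor3, a subunit of the Ragulator scaffold that anchors the complex, was at 28.7, 32.5 and 27.9 CPM in B6 and 17.8, 15.2 and 18.4 CPM in BALB/c (log2 fold -0.76 ± 0.18, limma adjusted p = 0.00715). The kinase gene Mtor had -0.52 ± 0.16 (0.0450), with B6 replicate 2 at 99.99 CPM and the other B6 libraries at 62.7 and 61.1 CPM against 50.8, 42.9 and 58.0 CPM in BALB/c. The call held without B6 replicate 3 or without BALB/c replicate 3, and was lost without any of the other 4 libraries, with an adjusted p of 0.265 without B6 replicate 2. It was also lost with no filter on low values, equal totals, limma-voom and the replicate number as a block. Of 16 subunits of the vacuolar proton pump, 2 were lower, Atp6v1a (-0.37 ± 0.09, limma adjusted p = 0.00728) and Atp6v1e1 (-0.30 ± 0.09, 0.0291), and 11 of 16 folds were negative. The call of Atp6v1a ended without B6 replicate 1 (adjusted p = 0.0534). That of Atp6v1e1 ended without any 1 library but B6 replicate 2 (up to 0.144), with no filter and with the block. With the variance prior without a trend, 4 of the 13 were called, Prcp, Rnaset2a, Tmem106b and Lamtor3.

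**Figure D5:**
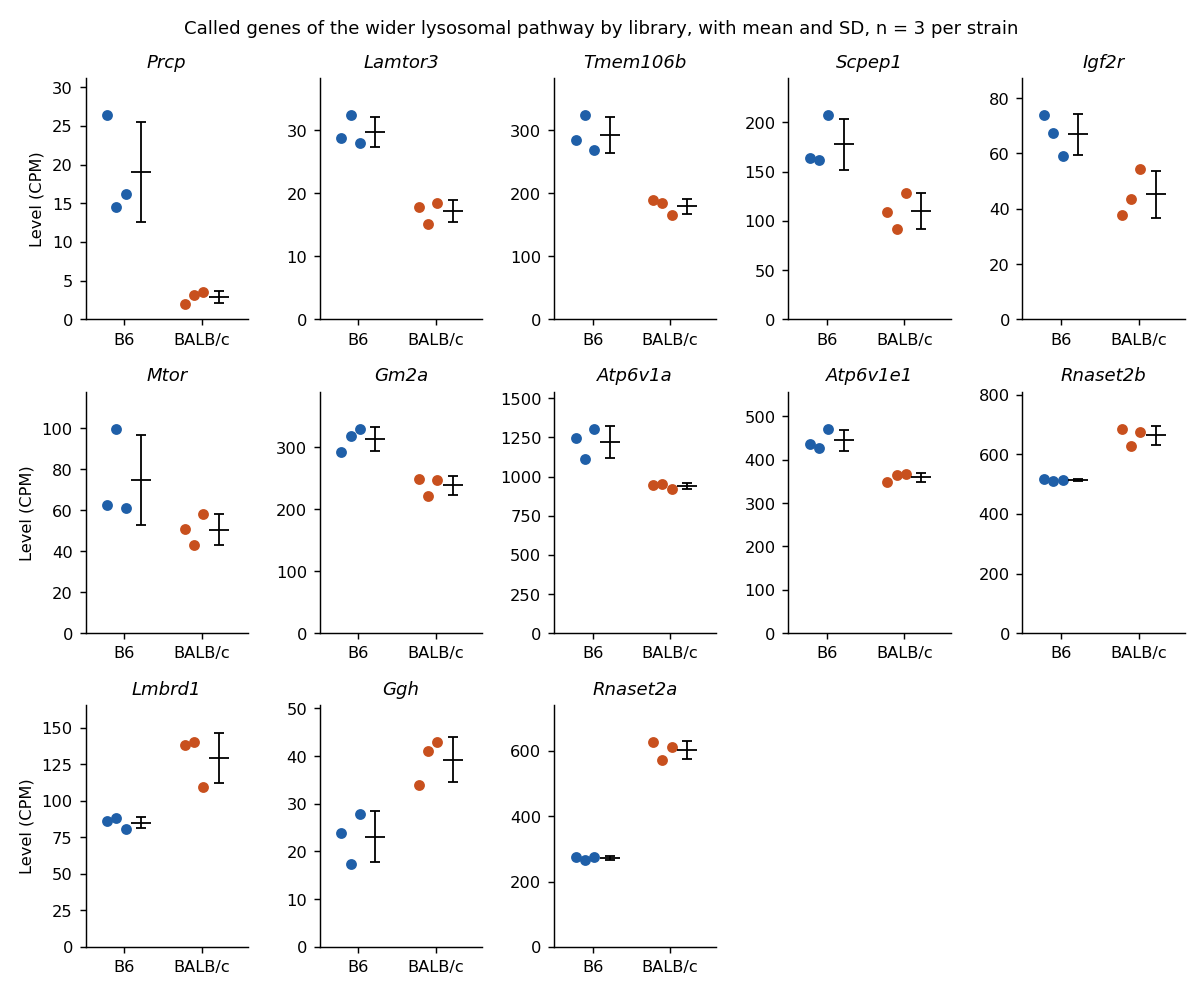
Level in CPM of the 13 called genes of the wider lysosomal pathway in each library (points), with the mean and SD of the 3 libraries of a strain (bars). BALB/c points lie below all B6 points for the 9 genes from Prcp to Atp6v1e1 and above them for Rnaset2b, Lmbrd1, Ggh and Rnaset2a.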

How the data were processed

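RNA of whole kidney, 1 library per sample, was measured for 3 B6 and 3 BALB/c samples. The library kit was QuantSeq of Lexogen, per the labels' protocols, a method that reads mainly 3′ ends of transcripts; which part was covered here was not tested. Per the submitters' processing notes, Bowtie2, bedtools and mm10 were used. Annotation, strand use and the treatment of reads with several alignments are not stated there, so overlapping genes cannot be told apart. Values were deposited by the authors on a log2 scale. They were read as log2(CPM + 1): after undoing the log and subtracting 1, they summed to between 980188 and 1043599 per library, and values worth 20 reads or fewer fell on multiples of a single-read step in 100% of cases (tolerance 0.1 read). The totals thus differ between libraries, and the scaling behind this is not named in the sources used here. The recovered reads gave the depths. Genes at a log2 value of at least 1 in at least 3 libraries were tested with limma 3.58.1 in R 4.3.3 (strain as sole term, trended variance prior of 18.4 degrees of freedom beside 4 residual ones, two-sided, Benjamini-Hochberg over 13317 genes), after tests on simulated data. In the file, 35 symbols stood on 79 rows, which were kept separate. The labels do not say more of the origin of replicates than a number of mice, and p-values measure the spread between these samples. Libraries of 1 strain varied beyond counting noise, with a chi-square of 7.93 to 17.1 for each degree of freedom. GENCODE M21 (GRCm38) gave positions and exon overlaps; a shared 3′ end is the share of 50-base words in the last 300 bases found in another gene. Promoters came from RefSeq. The genes and lists were chosen with earlier results of these data known. All 40 were to be accounted for, with values per library for called ones and the 10 uncalled with the smallest p, and up to 6 called genes per pathway list. Alternatives covered filters, pseudocounts, scalings, variance priors, limma-voom, a replicate block and leaving out each library.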

Additional observations from a re-analysis of the deposited data

How the results depend on the processing

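Called lysosomal genes numbered between 5 and 8 of 40 when 1 library was left out, and 6 or 7 under the filters, pseudocounts, scalings, robust prior and limma-voom on recovered reads. With no trend in the variance prior the counts fell to 1 of the lysosomal genes, 4 of the pathway genes and 493 of all genes, from 7, 13 and 1211; the cause was not tested. Over all genes, leaving out a library gave between 797 calls (without BALB/c replicate 1) and 1138 (without B6 replicate 2), with 806 without B6 replicate 1. With the replicate number as a block, 6 lysosomal, 11 pathway and 977 of all genes were called. Same-numbered libraries deviated with correlations of 0.01, -0.06 and -0.08 over genes, and differently numbered ones with -0.03 to 0.09. With 3 libraries of a strain these values cannot settle whether the numbers pair the samples. The median shift of all genes between scalings was at most 0.02 on the log2 scale. Signs turned in genes that were not called and lay near 0. Lamp2 had 0.0094 with equal totals and 0.0117 with limma-voom. When 1 library was left out, the log2 fold ran from -0.0325 to 0.081 for Ctsb, from -0.2232 to 0.0173 for Gaa, from -0.1622 to 0.2693 for Galns, from -0.0855 to 0.1215 for Glb1, from -0.0532 to 0.0918 for Grn, from -0.072 to 0.192 for Ids, from -0.1143 to 0.0787 for Lamp2, from -0.2032 to 0.1303 for Mcoln1, from -0.017 to 0.1175 for Npc2. Depth limits Gla and Manba most, with as few as 19 and 11 reads in a library.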

Other observations

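The surroundings of the 7 called genes were looked at after their values were seen. Within 500 kb of Neu1, in the MHC region whose haplotype differs between the strains, 3 of 43 tested genes were called, 1110038B12Rik, C4b and H2-D1, all higher in BALB/c, where 9.09% of all tested genes were called. Within 500 kb of Lipa 4 of 12 were called, Ifit3, Ifit3b, Acta2 and Slc16a12, and 2 of them were higher and 2 lower. Within 500 kb of Asah1 2 of 5 were called, Fgl1 and Slc7a2, both lower, as Asah1 was. Within 500 kb of Ctsl 1 of 8 was called, Habp4, which was lower. Near Gla, Ppt1 and Ctsc, 0 of 11, 0 of 9 and 0 of 1 were called by limma. Ctss, the gene of cathepsin S, a protease of antigen-presenting cells, was not called, at -0.58 ± 0.21 on the log2 scale (SE, limma adjusted p = 0.0912). Napsa, the gene of the aspartyl protease napsin A, which the proximal tubule expresses, had 0.26 ± 0.10 (adjusted p = 0.105).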
